A study of Mus musculus with 6 samples.

Results

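The CC chemokine ligands are small secreted proteins that attract leukocytes, and 10 of their genes that macrophages express were examined in LYVE-1+ tumor-associated macrophages (TAMs). The genes are Ccl2, Ccl3, Ccl4, Ccl5, Ccl6, Ccl7, Ccl8, Ccl9, Ccl12 and Ccl24, which were chosen by name and are 10 of the 21841 genes in the table. RNAseq was performed on macrophages sorted from mammary tumors of FVB/N-Tg(MMTV-PyVT)634Mul/J animals, with the genotype label WT, in which the MMTV promoter drives the polyoma middle T oncogene in mammary epithelium. In this design 3 mice were given vehicle and 3 were given KCL-HO-1i, an inhibitor of the heme-degrading enzyme HO-1, by intraperitoneal injection at 25 µmol/kg daily. Tumors were collected at 36 h, and 5000 live CD45+F4/80+CD206+LYVE-1+ cells were sorted for each library. Each library came from 1 mouse, and the ages of the mice are not given in the labels.

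CC chemokines act through G protein-coupled receptors on the cells they attract. Ccl2, Ccl7 and Ccl12 encode ligands of CCR2, the main receptor for the recruitment of monocytes into tissues, and in tumors CCL2 is known as a signal that brings in monocytes that become macrophages. Ccl6 and Ccl9 encode ligands of CCR1, mouse Ccl8 a ligand of CCR8, and Ccl24 an eotaxin that acts through CCR3 on eosinophils.

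The deposited values are estimated counts per gene. Vehicle replicates 1, 2 and 3 had totals of 206728, 215647 and 338255, and KCL-HO-1i replicates 1, 2 and 3 had 207812, 319737 and 535224, so depth overlapped between the groups. Genes with any count numbered 15105, 14017 and 17320 in vehicle libraries and 7584, 15150 and 10781 in KCL-HO-1i libraries, so KCL-HO-1i replicates 1 and 3 held fewer genes than any vehicle library. The share of counts on mitochondrial genes was 3.77%, 1.17% and 1.52% in vehicle libraries and 9.68%, 2.45% and 41.8% in KCL-HO-1i libraries. A count of 3, taken as the detection floor, equals 14.5, 13.9 and 8.87 CPM (counts scaled to the library total) in vehicle libraries and 14.4, 9.38 and 5.61 CPM in KCL-HO-1i libraries. The counts carry no molecular identifiers, so intervals and floors cover counting error only.

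The label of sorted macrophages was checked against 15 genes of general macrophage identity, and the vehicle libraries held few of their counts. These genes had 356, 53.0 and 125 counts in vehicle replicates 1, 2 and 3, and 1047, 2546 and 2266 counts in KCL-HO-1i replicates 1, 2 and 3. Lyz2 was the most abundant of them. Tyrobp, which encodes a signalling adaptor of myeloid cells, had 22, 0 and 0 counts in vehicle mice and 198, 204 and 124 with KCL-HO-1i. In CPM after TMM normalization (edgeR's scaling of libraries), 8 of the 15 macrophage genes were higher in each KCL-HO-1i library than in any vehicle library. All 8 were among the 10 that edgeR tested, against 572 (7.88%) of the 7263 genes tested. The untested Mertk, Fcgr1, Fcer1g, Aif1 and Itgam overlapped on this scale. The filter asked for 37.4 CPM in at least 3 libraries. Adgre1 and C1qa met it in 0 vehicle libraries, and Tyrobp, Ctss and Cd14 in 1. A high level with KCL-HO-1i thus helped these genes to be tested, so the count over tested genes is a description only. In CPM without TMM normalization, Cd68, Mertk, Fcgr1, Aif1 and Itgam overlapped between the groups. Cd68, a lysosomal protein gene of macrophages, had 8, 9 and 8 counts in vehicle mice and 0, 13.9 and 4 with KCL-HO-1i (log2 fold change -0.73, SE 1.53). Fcgr1 had 5, 2 and 11 counts in vehicle mice and 0, 6 and 14 with KCL-HO-1i, and Itgam had 4, 8 and 5 in vehicle mice and 1, 6 and 35 with KCL-HO-1i. Mertk was at 0 in the 3 vehicle libraries and in KCL-HO-1i replicate 1. Among the genes of the sorting markers, Ptprc (CD45) had 4, 6 and 0 counts in vehicle mice and 0, 17.7 and 94 with KCL-HO-1i. For Adgre1 (F4/80) there were 3, 3 and 1 counts in vehicle mice and 26, 44 and 72 with KCL-HO-1i. Mrc1 (CD206) had 12.0, 0 and 2.52 counts in vehicle mice and 30.6, 30.9 and 104 with KCL-HO-1i, while Lyve1 had 22, 8 and 12.4 in vehicle mice and 8, 38 and 36 with KCL-HO-1i. Vehicle replicates 2 and 3 therefore stand apart from their label, with 0.0246% and 0.0370% of counts on the macrophage genes against 0.172% in vehicle replicate 1 and 0.423% to 0.796% in KCL-HO-1i libraries. In bulk libraries, fewer cells of a type and less RNA per cell cannot be told apart. The codes of the 3 vehicle animals begin alike and differently from those of the 3 KCL-HO-1i animals, so treatment and any batch that goes with the codes cannot be told apart.

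The 10 ligands together had a larger share of each KCL-HO-1i library than of any vehicle library. Their summed counts were 1330, 40.6 and 146 in vehicle replicates 1, 2 and 3 and 4333, 12716 and 11565 in KCL-HO-1i replicates 1, 2 and 3. In vehicle replicate 1 this was 0.644% of the library (95% Wilson confidence interval 0.610% to 0.679%). It was 0.0188% (0.0140% to 0.0258%) in vehicle replicate 2 and 0.0433% (0.0367% to 0.0508%) in vehicle replicate 3. With KCL-HO-1i the shares were 2.09% (2.02% to 2.15%), 3.98% (3.91% to 4.05%) and 2.16% (2.12% to 2.20%). The group means were 0.235% ± 0.354 (SD, n = 3) in vehicle mice and 2.74% ± 1.07 (SD, n = 3) with KCL-HO-1i, for a log2 ratio of 3.54. Vehicle replicate 1 held most of the vehicle counts, and without it the log2 ratio was 6.46. Against vehicle replicate 1 alone, leaving out the replicates with few macrophage counts, it was 2.09.

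Ccl8, Ccl7 and Ccl2 dominated the pool of ligand transcripts with KCL-HO-1i. Levels of different genes were compared as counts per kb of the longest annotated transcript, given as a percentage of the counts per kb of the 10 ligands. On this scale Ccl8 was the most abundant ligand in each of the 6 libraries, with 57.1%, 40.3% and 42.8% in vehicle libraries and 42.6%, 59.7% and 36.9% in KCL-HO-1i libraries. Ccl7 came second in each KCL-HO-1i library with 33.4%, 22.3% and 35.3%, against 21.6%, 0% and 14.0% in vehicle mice. In KCL-HO-1i replicate 3 the shares of Ccl8 and Ccl7 were close. Ccl2 came next in each KCL-HO-1i library with 15.3%, 11.9% and 18.7%, against 12.8%, 0% and 16.9% in vehicle mice. The order Ccl8, Ccl7, Ccl2 thus held in the 3 KCL-HO-1i libraries and in vehicle replicate 1. The other ligands were minor with KCL-HO-1i, at mean shares per kb of 2.57% ± 0.697 (SD, n = 3) for Ccl6, 1.66% ± 0.410 for Ccl12, 1.40% ± 0.364 for Ccl9, 1.34% ± 0.968 for Ccl4, 0.809% ± 0.677 for Ccl3 and 0.220% ± 0.268 for Ccl24. The shares of Ccl12, Ccl9, Ccl4 and Ccl3 lay within their spread of one another. Vehicle replicate 2, whose pool rests on 40.6 counts, had its remaining share on Ccl24 (31.8%), Ccl9 (24.0%) and Ccl6 (3.87%).

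**Figure D1:**
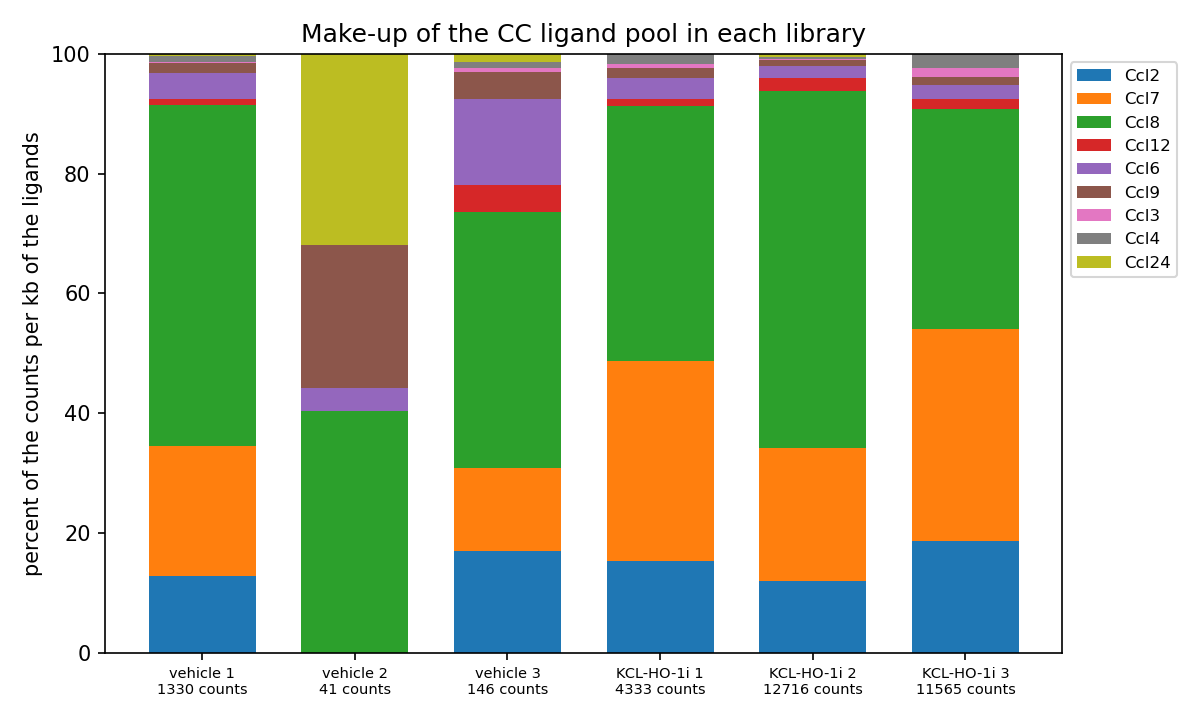
Share of each ligand in the counts per kb of the ligands, in percent, for the 6 libraries, with the summed ligand counts under each bar (Ccl5 had 0 counts and is not drawn). Ccl8 is the largest segment in each library, and Ccl24 and Ccl9 fill much of vehicle replicate 2, which has 40.6 ligand counts.

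These ligands were also high among all genes. Of 21613 genes with a known transcript length, Ccl8 ranked 8, 2 and 13 by counts per kb in KCL-HO-1i replicates 1, 2 and 3 and 8, 476 and 23 in the vehicle libraries. Ccl7 ranked 10, 6 and 14 with KCL-HO-1i and 17, 13922 and 82 in the vehicle libraries, with 0 counts in vehicle replicate 2. The level of a ligand near 0 was set against 1474 olfactory and vomeronasal receptor genes, whose products serve smell. Ccl8 was above the central 95% of these receptor genes, by counts per kb, in 3 of 3 vehicle libraries, Ccl2, Ccl6 and Ccl7 in 2 of 3, Ccl4, Ccl9 and Ccl12 in 1 of 3, and Ccl3 and Ccl24 in 0 of 3. With KCL-HO-1i, 8 ligands were above it in 3 of 3 libraries and Ccl24 in 2 of 3.

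**Figure D2:**
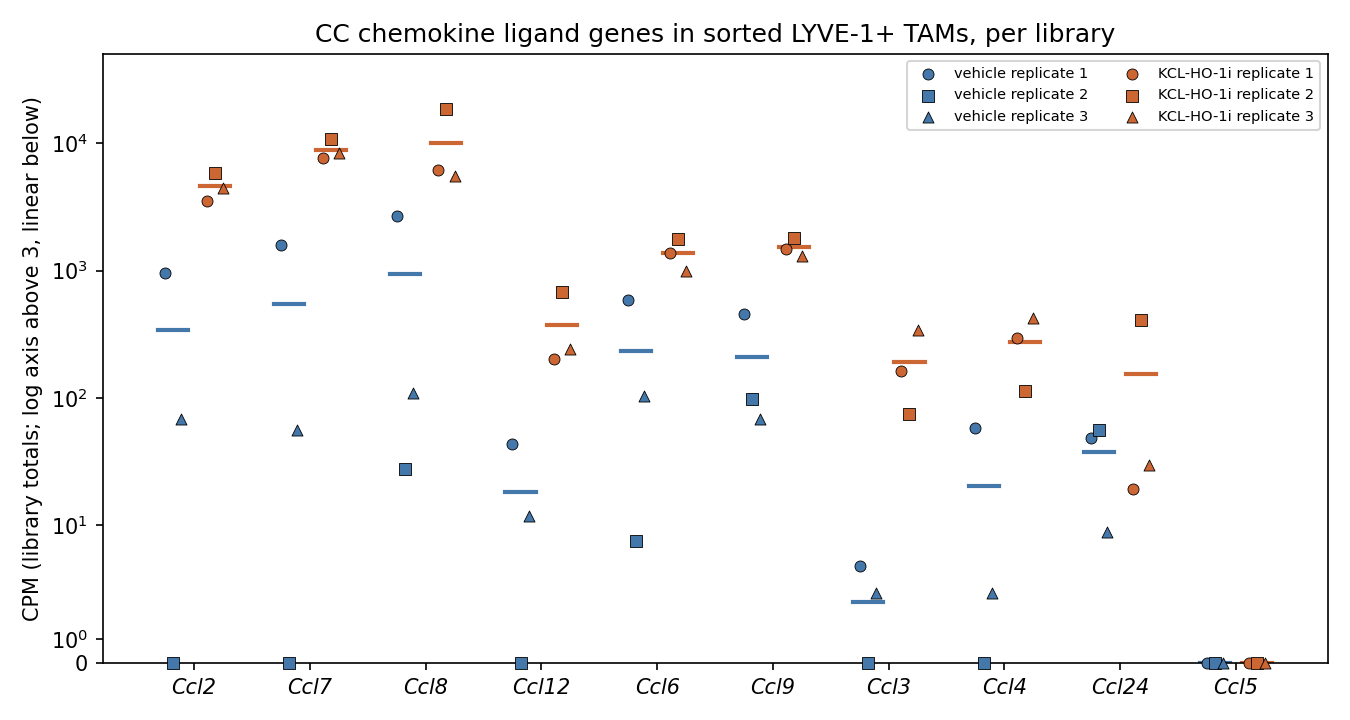
CPM of each ligand in each library (points, 3 vehicle and 3 KCL-HO-1i replicates) with group means (bars), on an axis that is logarithmic above 3 CPM and linear below. The KCL-HO-1i points lie above the vehicle points for 8 ligands, overlap them for Ccl24, and are at 0 like them for Ccl5.

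The ligands of CCR2 and CCR8 carried most of the ligand counts. Ccl2, Ccl7, Ccl8 and Ccl12 together made up 84.1%, 89.5% and 85.8% of the ligand counts in KCL-HO-1i libraries and 81.9%, 14.8% and 56.9% in the vehicle libraries. Ccl2, which attracts monocytes, had 198, 0 and 23.3 counts in vehicle mice and 734, 1861 and 2383 with KCL-HO-1i. As CPM this was 958, 0 and 68.9 in vehicle mice (342 ± 534, SD, n = 3) and 3532, 5820 and 4453 with KCL-HO-1i (4602 ± 1151). The groups did not overlap, and vehicle replicate 1 was the highest of the vehicle libraries by a wide margin. The log2 fold change of Ccl2 was 4.03 (standard error, SE, 1.65; edgeR quasi-likelihood test, Benjamini-Hochberg adjusted p = 0.536 over all genes tested). Ccl7, which encodes another monocyte attractant, had 329, 0 and 19 counts in vehicle mice and 1581, 3430 and 4447 with KCL-HO-1i. Its CPM was 1591, 0 and 56.2 in vehicle mice (549 ± 903, SD, n = 3) and 7608, 10728 and 8309 with KCL-HO-1i (8881 ± 1637). The groups of Ccl7 did not overlap either, with a log2 fold change of 4.28 (SE 1.81, edgeR quasi-likelihood with Benjamini-Hochberg adjusted p = 0.569).

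Ccl8 had 554, 6 and 37 counts in vehicle mice and 1286, 5874 and 2960 with KCL-HO-1i. In CPM these were 2680, 27.8 and 109 in vehicle mice (939 ± 1508, SD, n = 3) and 6188, 18371 and 5530 with KCL-HO-1i (10030 ± 7231). KCL-HO-1i replicate 2 was the highest, and the lowest KCL-HO-1i library was above vehicle replicate 1. The log2 fold change of Ccl8 was 3.62 (SE 1.59, edgeR quasi-likelihood with Benjamini-Hochberg adjusted p = 0.596). Ccl12, which also encodes a CCR2 ligand, had 9, 0 and 4 counts in vehicle mice and 42, 218 and 129 with KCL-HO-1i. That equals 43.5, 0 and 11.8 CPM in vehicle mice (18.5 ± 22.5, SD, n = 3) and 202, 683 and 241 CPM with KCL-HO-1i (375 ± 267). The vehicle values of Ccl12 rest on 13 counts in all, and the groups did not overlap. Its log2 fold change was 4.58 (SE 1.21, edgeR quasi-likelihood with Benjamini-Hochberg adjusted p = 0.296). For Ccl2, Ccl7, Ccl8 and Ccl12 the difference rests in part on vehicle replicates 2 and 3: against vehicle replicate 1 alone the log2 fold changes were 2.76, 2.95, 2.31 and 3.54, and without vehicle replicate 1 they were 7.58, 8.77, 7.65 and 6.26.

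Across the KCL-HO-1i libraries the ratio of Ccl7 to Ccl2 ranged less widely than that of Ccl8 to Ccl2. Per kb, Ccl7 was 2.19 times Ccl2 in KCL-HO-1i replicate 1 (95% exact binomial interval 2.00 to 2.39), 1.87 times in replicate 2 (1.77 to 1.98) and 1.89 times in replicate 3 (1.80 to 1.99). In vehicle replicate 1 the ratio was 1.69 (1.41 to 2.02), an interval that overlaps those of the 3 KCL-HO-1i libraries, and in vehicle replicate 3 it was 0.838 (0.432 to 1.61). For Ccl8 to Ccl2 the ratio was 2.79, 5.02 and 1.98 in KCL-HO-1i libraries and 4.45 and 2.56 in vehicle replicates 1 and 3. The ratio of Ccl8 to Ccl12 was 32.2, 28.3 and 24.1 with KCL-HO-1i. In vehicle replicates 1 and 3, with 9 and 4 counts of Ccl12, it was 64.7 (33.8 to 142) and 9.72 (3.49 to 37.5).

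Ccl6 and Ccl9, whose products act through CCR1, made up a smaller part of the ligand counts with KCL-HO-1i (13.6%, 8.97% and 10.6%) than in vehicle mice (16.3%, 55.7% and 39.7%). The wide gap rests on vehicle replicates 2 and 3, where the 2 genes had 22.6 and 58.0 counts. The 95% Wilson intervals of vehicle replicate 1 (14.4% to 18.4%) and KCL-HO-1i replicate 1 (12.6% to 14.7%) overlapped. Ccl6 had 122, 1.62 and 35.0 counts in vehicle mice and 286, 563 and 528 with KCL-HO-1i. As CPM, Ccl6 was at 592, 7.52 and 104 in vehicle mice (234 ± 313, SD, n = 3) and at 1376, 1760 and 986 with KCL-HO-1i (1374 ± 387). The groups did not overlap, with a log2 fold change of 2.75 (SE 1.19, edgeR quasi-likelihood with Benjamini-Hochberg adjusted p = 0.591), which was 1.61 against vehicle replicate 1 alone and 5.04 without it. Ccl9 had 95, 21 and 23 counts in vehicle mice and 305, 578 and 694 with KCL-HO-1i. This gave 460, 97.4 and 68.0 CPM in vehicle mice (208 ± 218, SD, n = 3) and 1468, 1808 and 1297 CPM with KCL-HO-1i (1524 ± 260). Ccl9 was the ligand seen in every vehicle library with at least 21 counts, and its log2 fold change was 3.11 (SE 0.973, edgeR quasi-likelihood with Benjamini-Hochberg adjusted p = 0.322), or 2.16 against vehicle replicate 1 alone and 4.74 without it. The annotated Ccl9 transcript is long, and 3.80% of its 31-base words also occur in transcripts of other genes, against 1.28% for Ccl6 and none for Ccl2, Ccl3, Ccl4, Ccl5, Ccl7, Ccl8 and Ccl12.

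Ccl3 and Ccl4, which encode MIP-1α and MIP-1β, were scarce in vehicle mice. Ccl3 had 1, 0 and 1 counts in vehicle mice and 34, 24 and 182 with KCL-HO-1i. The CPM values were 4.84, 0 and 2.96 in vehicle mice (2.60 ± 2.44, SD, n = 3), under the floor of 3 counts in each library, and 164, 75.1 and 340 with KCL-HO-1i (193 ± 135). Over the pooled libraries of each group this is a ratio of 85.9, and the 2 vehicle counts allow a range of 23.5 to 713 (95% exact binomial interval). The log2 fold change was 6.42 (SE 1.31, edgeR quasi-likelihood with Benjamini-Hochberg adjusted p = 0.218), a size that depends on how the fit treats counts near 0. Ccl4 had 12, 0 and 1 counts in vehicle mice and 61, 36 and 226 with KCL-HO-1i. In CPM, Ccl4 was at 58.0, 0 and 2.96 in vehicle mice (20.3 ± 32.7, SD, n = 3) and at 294, 113 and 422 with KCL-HO-1i (276 ± 156). The groups did not overlap for either gene, and KCL-HO-1i replicate 3 was the highest for both. The log2 fold change of Ccl4 was 4.16 (SE 1.37, edgeR quasi-likelihood with Benjamini-Hochberg adjusted p = 0.353), or 2.83 against vehicle replicate 1 alone and 7.65 without it. Per kb, Ccl4 was 2.08, 1.74 and 1.44 times Ccl3 in KCL-HO-1i replicates 1, 2 and 3, while vehicle mice had too few Ccl3 counts for a ratio.

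Ccl24 and Ccl5 did not share this pattern. Ccl24 had 10, 12 and 3 counts in vehicle mice and 4, 132 and 16 with KCL-HO-1i. This equals 48.4, 55.6 and 8.87 CPM in vehicle mice (37.6 ± 25.2, SD, n = 3) and 19.2, 413 and 29.9 CPM with KCL-HO-1i (154 ± 224). The groups overlapped, since KCL-HO-1i replicates 1 and 3 were below vehicle replicates 1 and 2. The log2 fold change was 2.24 (SE 1.28, edgeR quasi-likelihood with Benjamini-Hochberg adjusted p = 0.764) and rests on KCL-HO-1i replicate 2, without which it was -0.15. Ccl5, a ligand made by T cells and NK cells as well as macrophages, had 0 counts in each of the 6 libraries and could not be tested. A count of 0 allows up to 14.5, 13.9 and 8.87 CPM in vehicle libraries and 14.4, 9.38 and 5.61 CPM in KCL-HO-1i libraries.

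Among the ligands 0 passed the thresholds of an adjusted p under 0.05 and an absolute log2 fold change above 0.6 in edgeR's quasi-likelihood test, as did 0 (0%) of the 7263 genes tested, whose smallest adjusted p was 0.205 after Benjamini-Hochberg adjustment. At an unadjusted p under 0.05, 8 ligands were higher with KCL-HO-1i, against 364 (5.01%) of the genes tested. The same 8 ligands did not overlap between groups in CPM after TMM normalization, against 572 (7.88%) of the genes tested. DESeq2 without a filter called 2 ligands higher, Ccl3 (log2 fold change 6.81, adjusted p = 0.00422; 0.00114 to 0.9996 over the alternatives) and Ccl12 (4.69, adjusted p = 0.0110; 0.00337 to 0.9996 over the alternatives), against 102 (0.882%) of the 11562 genes to which it gave an adjusted p. DESeq2 on the filtered genes called 4 ligands higher, against 164 (2.26%) of the 7263 genes, and limma voom called 8 higher, against 293 (4.03%). The filter asked for 37.4 CPM in at least 3 libraries, which 9 of the 10 ligands met. Ccl9 met it in the 3 vehicle libraries as well, whereas Ccl3 met it in none of them, Ccl4 and Ccl12 in 1, and Ccl2, Ccl6, Ccl7, Ccl8 and Ccl24 in 2, so a high level with KCL-HO-1i helped 8 of these ligands to be tested, and counts over the tested ligands are descriptions only. The median log2 fold change of the 9 tested ligands was 4.03, against -0.52 for all genes tested, of which 2367 were above 0 and 4896 below. Without vehicle replicate 1, edgeR called 4 ligands (Ccl4, Ccl7, Ccl8 and Ccl9, with log2 fold changes of 7.65, 8.77, 7.65 and 4.74), against 72 (0.731%) of 9853 genes called higher, and without vehicle replicates 2 and 3 it called 0.

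Since the macrophage genes held more counts in each KCL-HO-1i library than in any vehicle library, the ligands were also set against them. For each 1000 counts on the 15 macrophage genes there were 3740, 767 and 1170 ligand counts in vehicle replicates 1, 2 and 3 and 4139, 4995 and 5105 in KCL-HO-1i replicates 1, 2 and 3. The groups still did not overlap (1892 ± 1613 in vehicle mice and 4746 ± 529 with KCL-HO-1i, SD, n = 3), but vehicle replicate 1 came close to KCL-HO-1i replicate 1. The log2 ratio on this scale was 1.33, and it was 0.34 against vehicle replicate 1 alone. By ligand, Ccl2 had 557, 0 and 186 counts for each 1000 macrophage counts in vehicle mice and 701, 731 and 1052 with KCL-HO-1i. Ccl7 had 925, 0 and 152 in vehicle mice and 1510, 1347 and 1963 with KCL-HO-1i. Ccl12 had 25.3, 0 and 32.0 in vehicle mice and 40.1, 85.8 and 56.9 with KCL-HO-1i. Ccl3 had 2.81, 0 and 7.995 in vehicle mice and 32.5, 9.43 and 80.3 with KCL-HO-1i. Ccl2, Ccl3, Ccl7 and Ccl12 did not overlap between the groups on this scale, 4 of the 9 tested ligands, against 38 (0.523%) of the 7263 genes tested. The gap was narrow for Ccl3 and Ccl12, which had 1 and 4 counts in vehicle replicate 3. A high level with KCL-HO-1i helped these 4 ligands to be tested, and with macrophage scaling edgeR called 72.1% of genes lower. The comparison with 0.523% is thus a description only. Ccl8 overlapped, with 1558, 113 and 296 in vehicle mice and 1228, 2307 and 1306 with KCL-HO-1i. Ccl9 did not separate the groups at all, with 267, 397 and 184 in vehicle mice and 291, 227 and 306 with KCL-HO-1i. When edgeR was run with libraries scaled to the macrophage genes, the all-gene median went from -0.52 to -4.47 and the median of the tested ligands to 1.53. On that scale the log2 fold change was 3.33 for Ccl3, 2.14 for Ccl7, 1.72 for Ccl2, 0.12 for Ccl6, -0.033 for Ccl9 and -2.06 for Ccl24, with 0 ligands called.

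Of the 10 ligand genes, 9 lie on chromosome 11 in 2 clusters, and Ccl24 lies on chromosome 5 (chr5:135569937-135573049, minus strand). Positions are those of GENCODE M21 on GRCm38. The first cluster holds Ccl2 (chr11:82035571-82037453), Ccl7 (chr11:82045712-82047525), Ccl12 (chr11:82101845-82103400) and Ccl8 (chr11:82115185-82116799), all on the plus strand and each with 3 exons. It spans 81.2 kb from the start of Ccl2 to the end of Ccl8. Ccl11, an eotaxin gene that lies between Ccl7 and Ccl12 (chr11:82057823-82062955), had 0, 3 and 3 counts in vehicle mice and 0, 5 and 0 with KCL-HO-1i. The cluster therefore held the 3 most abundant ligands beside a neighbour that was near 0 in both groups. The second cluster spans 139 kb and holds Ccl5 (chr11:83525778-83530518), Ccl9 (chr11:83572919-83578636), Ccl6 (chr11:83587882-83593087) and Ccl3 (chr11:83647844-83649355) on the minus strand and Ccl4 (chr11:83662584-83664683) on the plus strand. Ccl5, at one end of it, was at 0, while Ccl6 and Ccl9 had means of 954 and 507 CPM per kb with KCL-HO-1i. Ccl2 overlaps Gm17268 and Ccl6 overlaps E230016K23Rik on the opposite strand. The library kit was directional, and the strand setting used for counting is not stated.

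**Figure D3:**
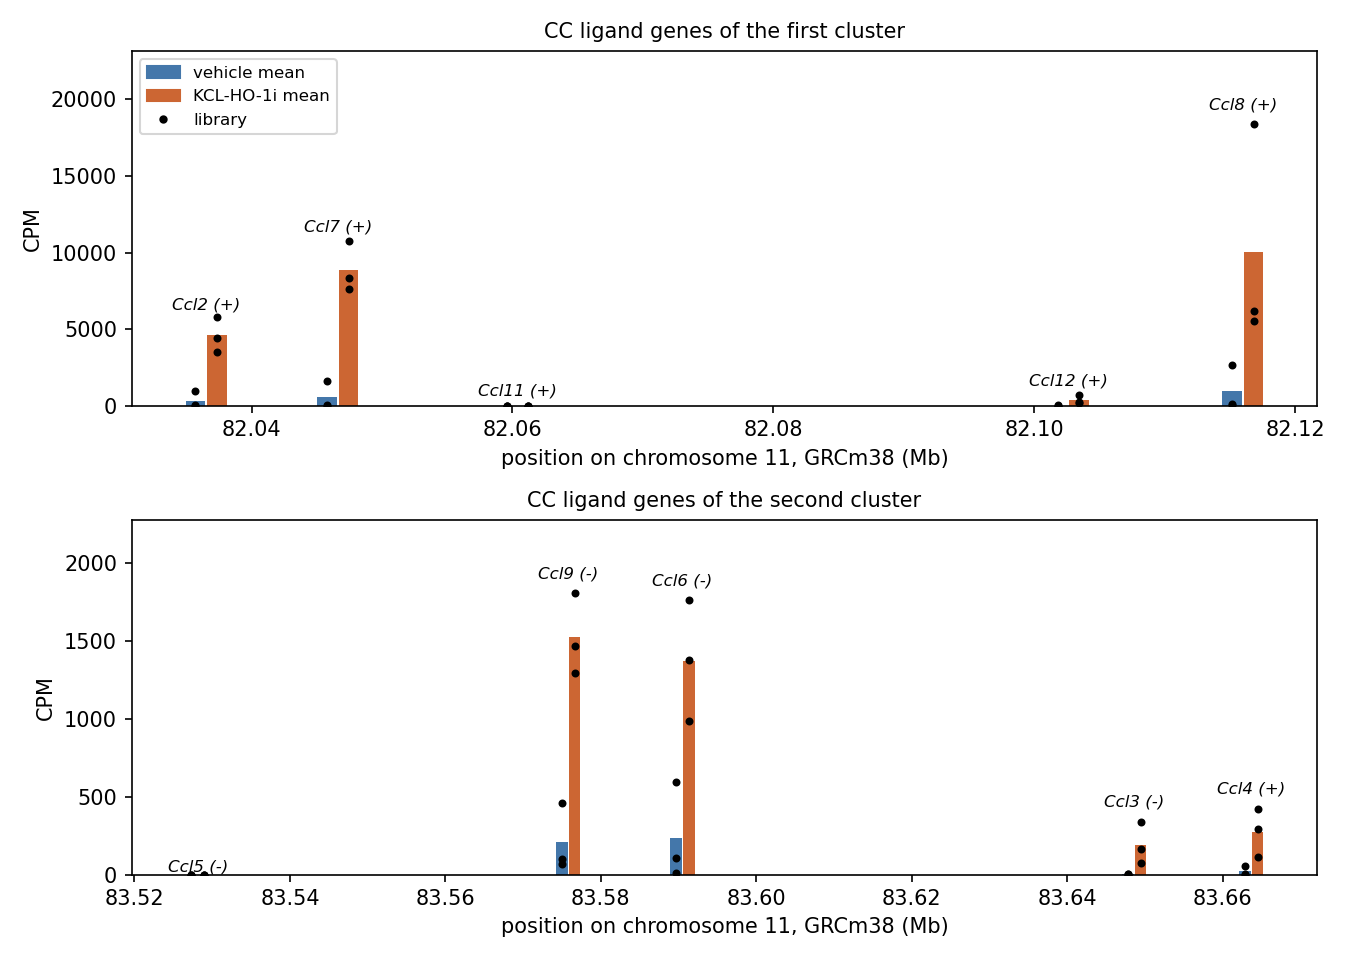
Mean CPM of each group (bars) and CPM of each library (dots) for the CC ligand genes of both chromosome 11 clusters, drawn at their positions on GRCm38 with the strand in brackets and bars wider than the genes. Ccl2, Ccl7 and Ccl8 reach the highest levels of the first cluster, while Ccl11 and Ccl5 are at or near 0.

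The set of RefSeq promoter sequences used here (GRCm38.p6) held 5 of the 10 ligands, Ccl3, Ccl6, Ccl8, Ccl9 and Ccl12. Ccl2, Ccl4, Ccl5, Ccl7 and Ccl24 were not in that set, and their promoters were not examined. The 250 bases before the gene start are shown for Ccl8 and Ccl12, neighbours in the first cluster that were both higher in each KCL-HO-1i library, and for Ccl9, a ligand of the second cluster. Capitals mark matches, on either strand, to TATAAA (the TATA box), GGNNNTTCC (part of an NF-kB site) and TGANTCA. The last is a loose form of the AP-1 site that allows any base in the middle, while the site itself has C or G there. The Ccl8 sequence is chr11:82114935-82115184 on the plus strand, the Ccl12 sequence chr11:82101595-82101844 on the plus strand, and the Ccl9 sequence chr11:83578637-83578886 on the minus strand.
Ccl8: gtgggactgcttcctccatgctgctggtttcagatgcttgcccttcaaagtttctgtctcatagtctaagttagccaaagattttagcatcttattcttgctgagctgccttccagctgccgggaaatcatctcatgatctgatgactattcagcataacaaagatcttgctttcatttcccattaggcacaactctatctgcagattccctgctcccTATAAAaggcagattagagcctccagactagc
Ccl12: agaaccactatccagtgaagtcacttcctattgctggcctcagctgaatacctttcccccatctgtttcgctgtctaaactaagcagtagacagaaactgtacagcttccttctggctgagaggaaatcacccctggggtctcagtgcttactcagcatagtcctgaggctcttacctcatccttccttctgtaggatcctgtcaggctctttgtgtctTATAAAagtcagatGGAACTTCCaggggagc
Ccl9: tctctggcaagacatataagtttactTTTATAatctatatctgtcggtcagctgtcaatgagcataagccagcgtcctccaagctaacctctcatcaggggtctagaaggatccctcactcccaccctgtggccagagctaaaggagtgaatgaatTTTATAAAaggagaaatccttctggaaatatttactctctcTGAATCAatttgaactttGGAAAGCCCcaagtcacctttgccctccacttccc
TATAAA was found in 3 of the 5 promoters (Ccl8, Ccl9 and Ccl12) and in 12.4% of 32851 mouse promoters of the same length. It begins 32 bases before the start in Ccl8 and 31 bases before it in Ccl12. In Ccl9 the matches begin farther away, 224, 94 and 92 bases before the start. GGNNNTTCC was found in 2 of the 5 (Ccl12 and Ccl9) and in 15.7% of all promoters, and TGANTCA in 1 (Ccl9) and in 6.75%. The match in Ccl9 is TGAATCA, with A in the middle. TGACNNNGC, the core of the antioxidant response element, was found in 0 of the 5 and in 10.2% of all promoters, and TTCNNNGAA, a STAT site, in 0 of the 5 and in 7.02%. In Ccl9, matches to TATAAA on opposite strands overlap each other. These are matches of letters in a short window and carry no reading of which factor was active.

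The other 14 CC ligand genes of the mouse had few counts, and Ccl17, Ccl21b, Ccl21c, Ccl26 and Ccl27b were at 0 in each library. Only Ccl28, a ligand of mucosal epithelia, passed the filter, with 9, 3 and 20 counts in vehicle mice and 15, 3 and 19.8 with KCL-HO-1i. Its log2 fold change was 0.18, smaller than its standard error of 1.25 (edgeR quasi-likelihood with Benjamini-Hochberg adjusted p = 0.981). Ccl22, which encodes a CCR4 ligand, had 18, 8 and 28 counts in vehicle mice and 2, 5 and 0 with KCL-HO-1i. Its CPM was thus lower in each KCL-HO-1i library than in any vehicle library. The same held after TMM normalization, as it did for 1171 of the 7263 genes tested. Ccl22 did not pass the filter, and the unfiltered fit put it at a log2 fold change of -2.78 (SE 1.72, edgeR quasi-likelihood with Benjamini-Hochberg adjusted p = 0.707). Among the rest, Ccl20 had 0 to 9 counts, Ccl25 had 0 to 8 and Ccl27a had 0 to 9 in a library. The high counts of Ccl2, Ccl7 and Ccl8 were thus not shared by the CC ligands outside the 10.

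Most of the tested genes from a list of CC receptors, not only receptors of these ligands, had lower values with KCL-HO-1i, as did most genes tested. Of 15 CC receptor and atypical receptor genes 8 were tested, of which 1 had a log2 fold change above 0 and 7 below (2367 and 4896 over all genes), with a median of -0.59 against -0.52 for all genes tested. Of these, 0 passed the thresholds in edgeR, 0 had an unadjusted p under 0.05 (364 higher and 222 lower of the 7263 genes), and DESeq2 without a filter and limma voom called 0 (165 and 299 over all genes). With libraries scaled to the macrophage genes edgeR called 7 of them lower, as it did 5234 (72.1%) of all genes tested, whose median was -4.47. Ccr2, the receptor of Ccl2, Ccl7 and Ccl12, had 38, 29 and 32 counts in vehicle mice and 23, 28 and 23 with KCL-HO-1i (log2 fold change -0.65, SE 0.811). Ccr1, the receptor of Ccl6 and Ccl9, had 16, 1 and 40 counts in vehicle mice and 17, 66 and 36 with KCL-HO-1i (log2 fold change 1.01, SE 1.09). For both receptors the groups overlapped and the difference was within about 1 standard error. Ccr3, the receptor of the eotaxins, had 11, 13 and 15 counts in vehicle mice and 0, 5 and 0 with KCL-HO-1i. Its log2 fold change was -3.07 (SE 1.68, edgeR quasi-likelihood with Benjamini-Hochberg adjusted p = 0.746), and its groups did not overlap. Of the 8 tested receptors 1, Ccr3, was lower without overlap in CPM after TMM normalization, against 1171 of the 7263 genes tested. Ccr8, the receptor of mouse Ccl8, had 3, 7 and 7 counts in vehicle mice and 17, 16 and 0 with KCL-HO-1i and was not tested. The log2 fold changes of Ccr4, Ccr9, Ccr10 and Ccrl2 ranged from -2.09 to -0.054. Ccr6, Ccr7, Ccr1l1, Ackr1, Ackr2 and Ackr4 were not tested and had 0 to 22 counts in a library. Ackr4, an atypical receptor that takes up CCL19 and CCL21, had 10.7, 5 and 10 counts in vehicle mice and 0, 1 and 0 with KCL-HO-1i.

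Genes of the signalling steps downstream of CC receptors were mixed. Of 24 such genes 15 were tested, 9 with a log2 fold change above 0 and 6 below (2367 and 4896 over all genes), and their median was 0.72, or -3.00 with libraries scaled to the macrophage genes. In edgeR's quasi-likelihood test 0 passed the thresholds and 3 were higher at an unadjusted p under 0.05, against 5.01% of all genes tested. Of these 3, Cdc42 and Gng5 met the filter in 3 vehicle libraries and Rhoa in 0. A high level with KCL-HO-1i thus helped Rhoa to be tested. DESeq2 without a filter called 1 higher (0.882% of all genes) and limma voom 2 (4.03%). The genes with the highest mean CPM were Cdc42, Gng5 and Rac1. Cdc42, a GTPase of cell polarity and migration, had 19, 28 and 33 counts in vehicle mice and 246, 197 and 177 with KCL-HO-1i, with groups that did not overlap. Its log2 fold change was 2.81 (SE 0.752, edgeR quasi-likelihood with Benjamini-Hochberg adjusted p = 0.296), and it was the gene that DESeq2 called. Gng5, a G protein gamma subunit, had 21, 30 and 45 counts in vehicle mice and 136, 146 and 332 with KCL-HO-1i (log2 fold change 2.49, SE 0.755). Rac1, another GTPase of migration, had 11.3, 25.2 and 32.9 counts in vehicle mice and 55.8, 64 and 35.5 with KCL-HO-1i (log2 fold change 1.08, SE 0.794). Plcb2, a phospholipase downstream of G proteins, was picked after seeing its values, with 1.68, 16 and 3.78 counts in vehicle mice and 0 in each KCL-HO-1i library.

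Transcription factors and signalling genes known for inducing CC ligands mostly had higher values with KCL-HO-1i, except when libraries were scaled to the macrophage genes (median log2 fold change -2.30). Of 24 such genes 16 were tested, 14 with a log2 fold change above 0 and 2 below (2367 and 4896 over all genes), and their median was 1.72, against -0.52 for all genes tested. In edgeR's quasi-likelihood test 0 passed the thresholds and 6 were higher at an unadjusted p under 0.05, against 5.01% of all genes tested. Of these 6, Junb met the filter in 2 vehicle libraries and Fos, Nfkbia, Nfkbiz, Tnfaip3 and Cebpb in 1. A high level with KCL-HO-1i thus helped them to be tested, so counts over the tested genes of this list are descriptions only. DESeq2 without a filter called 1 higher (0.882% of all genes) and limma voom 4 (4.03%). Fos, a subunit of AP-1, had 41, 6 and 7 counts in vehicle mice and 435, 146 and 818 with KCL-HO-1i. The groups of Fos did not overlap, with a log2 fold change of 4.29 (SE 1.16, edgeR quasi-likelihood with Benjamini-Hochberg adjusted p = 0.296), and it was the gene that DESeq2 called. Nfkbia, an inhibitor of NF-kB that NF-kB itself induces, had 39, 3 and 10 counts in vehicle mice and 134, 254 and 289 with KCL-HO-1i (log2 fold change 3.32, SE 1.04). Nfkbiz, another IkB family gene, had 14, 0 and 8 counts in vehicle mice and 117, 63 and 55 with KCL-HO-1i (log2 fold change 3.22, SE 1.17). These genes were higher in each KCL-HO-1i library than in any vehicle library.

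Markers of other cells that a sorted tumor sample could hold were set beside the ligands. For T and NK cells, 12 of 14 markers were in the table and their summed CPM was 162, 189 and 164 in vehicle mice and 135, 90.7 and 37.4 with KCL-HO-1i. Cd8a was their most abundant gene, and Cd3g was near 0 in both groups (0, 5 and 0 counts in vehicle mice and 0 in each KCL-HO-1i library). Neutrophil markers (9 of 9) summed to 232, 148 and 131 CPM in vehicle mice and 188, 125 and 111 with KCL-HO-1i, with Cxcr2 as the most abundant and S100a8 with 0 counts in each vehicle library and 0, 2 and 27 with KCL-HO-1i. The summed markers of these leukocytes were thus not higher with KCL-HO-1i. Mast cell and eosinophil markers (9 of 9, Tpsb2 the most abundant) summed to 91.9, 74.2 and 47.3 CPM in vehicle mice and 0, 34.4 and 33.6 with KCL-HO-1i. Monocyte and dendritic cell markers (10 of 10, Zbtb46 the most abundant) had 333, 318 and 425 CPM in vehicle mice and 207, 222 and 109 with KCL-HO-1i. Ly6c2, a marker of the monocytes that Ccl2 attracts, had 1.68, 0 and 0 counts in vehicle mice and 0 in each KCL-HO-1i library, so it was near 0 in both groups. Cd209a of the same list had 7, 1 and 7 counts in vehicle mice and 25, 37 and 5 with KCL-HO-1i. Endothelial markers (10 of 10, Prox1 the most abundant, Egfl7 at 0 in each library) had 343, 315 and 457 CPM in vehicle mice and 212, 235 and 136 with KCL-HO-1i. Fibroblast markers (9 of 9, Pdgfra the most abundant) had 339, 283 and 337 CPM in vehicle mice and 72.2, 103 and 206 with KCL-HO-1i. These 4 lists, and that of T and NK cells, were lower in each KCL-HO-1i library than in any vehicle library. Among single genes, 1171 of the 7263 tested were lower in the same way, in CPM after TMM normalization. The marker counts were low, and fewer genes had any count in KCL-HO-1i replicates 1 and 3, so whether these cells were fewer was not tested. Mammary epithelial markers (11 of 11) had 320, 88.1 and 186 CPM in vehicle mice and 1718, 360 and 434 with KCL-HO-1i. This difference rests on the milk protein genes Csn3, Csn2, Lalba and Wap, a split made after seeing the values. The other 7 markers summed to 131, 83.5 and 133 CPM in vehicle mice and 197, 106 and 16.8 with KCL-HO-1i, so the groups overlapped. The most abundant of the 11 was Csn3 with 39, 1 and 18 counts in vehicle mice and 244, 79 and 176 with KCL-HO-1i, while Epcam had 5, 0 and 0 counts in vehicle mice and 0, 4 and 9 with KCL-HO-1i. Cdh1, the gene of E-cadherin, was lower in each KCL-HO-1i library, with 5, 12 and 13 counts in vehicle mice and 0, 3 and 0 with KCL-HO-1i, and Krt5 and Krt14 overlapped. The olfactory and vomeronasal receptor genes took at least 5.98% of each vehicle library and at most 4.18% of each KCL-HO-1i library, while genes of ribosomal proteins took 0.969%, 0.193% and 0.213% in vehicle mice and 2.07%, 2.35% and 1.53% with KCL-HO-1i. The part of the epithelial markers, the mitochondrial share or these shares in the ligand differences was not tested.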

How the data were processed

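RNAseq libraries of LYVE-1+ TAMs came from 3 vehicle and 3 KCL-HO-1i mice. The submitters' processing notes name FastQC 0.11.9, STAR 2.7.9a, Salmon 1.9.0 and build mm10, and the deposited values are gene-level estimated counts, which the authors made with Salmon and tximport and did not scale to library size. The methods call the table TPM counts, but its totals differ between libraries, so it was read as estimated counts.

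Counts were rounded, filtered with filterByExpr (minimum count 10, minimum total 15), TMM normalized and tested over all genes by quasi-likelihood in edgeR 4.0.16 (R 4.3.3) with no covariates. A standard error is the log2 fold change divided by the square root of F. DESeq2 1.42.0, limma 3.58.1 (voom with quality weights), other normalizations and filters, scaling to 15 macrophage genes, the replicate number as a block, thinned counts and each mouse left out were alternatives. The smallest p of an exact permutation test of 3 mice against 3 is 0.1, so single values were given without one. Between replicates of a group the chi-square per degree of freedom was 6.64 to 37.3, over genes with a summed count of 20 or more, so replicates differed beyond sampling noise. The fit was tested on simulated data that varied less between replicates than these libraries, so that test does not cover their spread.

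Transcript lengths and positions come from GENCODE M21, which may differ from the authors' annotation, and 99.0% of the genes had a length. The genes named are the 10 ligands, all CC receptors and other CC ligands with at least 10 counts over the 6 libraries, the 3 genes of highest mean CPM in each of the signalling and induction lists, the sorting markers, and for each other cell type its most abundant gene and defining markers at 0. Not every gene that meets this rule is reported here. The members and lists were chosen with earlier results of these data known. Other genes were named after their values were seen.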

Additional observations from a re-analysis of the deposited data

How the results depend on the processing

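The count of genes called, 0 in edgeR's quasi-likelihood test, was 165 with DESeq2 without a filter, 236 with DESeq2 on the filtered genes, 299 with limma voom, 82 without a filter, 67 among genes with 10 counts in every library, 586 at an unadjusted p under 0.05 and 5243 with libraries scaled to the macrophage genes. The ligands called were 2, 4, 8, 4, 1, 8 and 0 in that order. Of the receptor signalling genes 1, 2, 2, 0, 2, 3 and 6 were called, of the induction genes 1, 3, 4, 1, 0, 6 and 4, and of the CC receptors 7 with macrophage scaling. With macrophage scaling the calls in these lists, and 5234 of the 5243 genes, were lower with KCL-HO-1i, and under the other settings the calls in the lists were higher. When each mouse was left out, the calls were 0 to 74 for all genes, 0 to 4 for the ligands and 0 to 2 for the induction genes, and the highest count came without vehicle replicate 1. RLE normalization, library totals, thinned counts, removal of mitochondrial genes and the other fold change thresholds called 0 genes. The numbers of the replicates do not pair mice (correlations of -0.00263, 0.0550 and -0.0326 for replicates 1, 2 and 3), and with the replicate block edgeR called 0 genes and 0 ligands, with a ligand median of 5.24. Of 154 fitted ligand values under an alternative, 151 kept the direction. With macrophage scaling Ccl9 was at -0.033 and Ccl24 at -2.06, and with each mouse left out Ccl24 ranged from -0.15 to 3.05. The log2 ratio of the summed ligands, 3.54, was 3.00 to 6.46 with each mouse left out, and relative to the macrophage genes, 1.33, it was 0.95 to 2.29. Leaving out vehicle replicates 2 and 3 together, chosen after seeing the data, gave 0 calls, with the lone vehicle library assumed to vary like the KCL-HO-1i libraries. The causes of these changes were not tested. Vehicle replicates 2 and 3 had 53.0 and 125 macrophage counts, a small share of library totals that overlap those of the KCL-HO-1i libraries.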
